A study of Rattus norvegicus with 15 samples.

Results

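The genes described here make the peptide supply of MHC class I, measured as RNA in rat multifidus, the deep paraspinal muscle. They were the rows of the count table whose symbol is B2m, Tap1, Tap2, Tapbp, Psmb8, Psmb9, Psmb10 or Nlrc5, and these 8 of 37991 genes were all found. All 8 passed the filter on low counts that kept 17201 genes, and each had a count in every library. The samples were 15 RNA-seq libraries of male wild-type Sprague Dawley rats, 12 weeks old. Uninjured rats gave the control group (2 libraries), and rats with spinal surgery and no further treatment gave the surgery group (2 libraries). The pMT group (4 libraries) had surgery and then 25 μg per site, 50 μg per rat, of mitochondria isolated from human blood plasma (pMT) injected into the left paraspinal muscle. The VitD group (3 libraries) had surgery and 150 μg per site, 300 μg per rat, of cholecalciferol, the native form of vitamin D, and the pMT/VitD group (4 libraries) had surgery and both at these doses. The surgery group is described as untreated after surgery, so the act of injection and what was injected cannot be told apart. The labels do not say whether a library stands for 1 rat, so p-values measure the spread between these libraries, which may be technical.

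MHC class I molecules show short peptides from inside the cell to CD8 T cells. Proteasomes cut proteins into peptides, a transporter carries the peptides into the endoplasmic reticulum, and a loading complex fits them onto a heavy chain paired with beta-2-microglobulin. Interferon-gamma is a well known inducer of this set of genes. Resting muscle fibres carry little class I, while inflamed muscle can carry much more, and leukocytes and endothelium within the tissue carry it all the time.

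Total counts ranged from 52342134 to 73557878 per library. Levels are given as CPM, counts scaled to a common library total, after scaling by the trimmed mean of M values (TMM), with factors from 0.849 to 1.20, or as the deposited TPM, which allow for gene length and are scaled to the library total only. With scaling by library size alone the median gene moved by 0.25 (log2) between surgery and control and by -0.32 between pMT/VitD and surgery, so the scale is named beside each value. Mitochondrial messenger RNA took 10.7% to 22.6% of counts, most in pMT replicate 4. That library and pMT/VitD replicate 4 stood apart in their groups: the rank correlation across genes between gene length and the deviation from the mean library was -0.32 in pMT replicate 4 against 0.02 to 0.45 in the other pMT libraries, while pMT/VitD replicate 4 was at 0.15 and pMT/VitD replicates 1 to 3 ran from -0.39 to -0.17. A comparison called a gene at an adjusted p under 0.05 in edgeR's quasi-likelihood test over all 15 libraries, with Benjamini-Hochberg adjustment over 17201 genes. Skeletal muscle markers made up 103246 to 184464 CPM in each library and all 9 markers of that list had counts in every library.

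B2m, the light chain shared by all class I molecules, was by far the most abundant of the 8, with a mean of 326 TPM over the 15 libraries (range 221 to 572). The immunoproteasome subunits followed, with means of 17.9 TPM for Psmb10, 12.2 TPM for Psmb9 and 11.2 TPM for Psmb8. Tapbp, which encodes tapasin, the bridge between transporter and heavy chain, averaged 10.9 TPM. The transporter subunits were lower, at 5.81 TPM for Tap1 and 2.86 TPM for Tap2. Nlrc5, the transcriptional coactivator of class I genes, was the lowest at 0.335 TPM, which still rested on 79 to 258 counts per library. The spread over libraries was narrow for Tap2, whose highest CPM was 1.27 times its lowest, and wide for Psmb8, at 2.61 times.

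The control group had the lowest mean CPM for 6 of the 8 genes, all but Tap2 and Nlrc5. The surgery group had the highest mean for 4 (Tap1, Tapbp, Psmb9 and Psmb10), the VitD group for 2 (B2m and Nlrc5) and the pMT group for 2 (Tap2 and Psmb8). None of the 32 neighbouring pairs of groups in these orders passed the test. Neighbours have the closest means by construction, so this says little, and the orders are given as a description only. Over all 5 groups together, 0 of 8 genes passed (11.8% of all genes did). Nlrc5 was the 1 gene of the 8 with an unadjusted p under 0.05, as 26.2% of all genes had. Its edgeR adjusted p over the 5 groups was 0.0692.

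**Figure D1:**
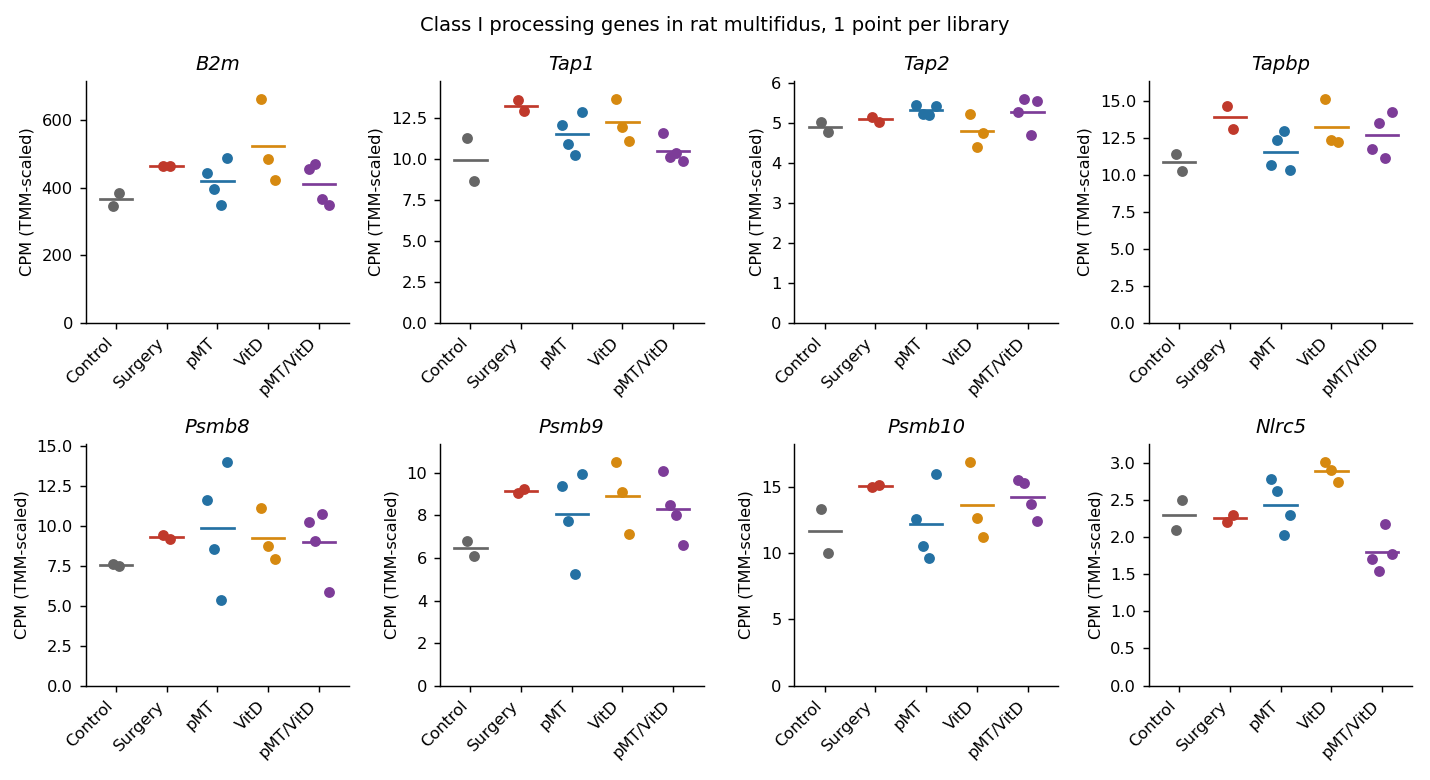
TMM-scaled CPM of the 8 genes in each library, 1 point per library in label order, with a line at the group mean and the axis from 0. Both surgery libraries lie above both control libraries for every gene but Nlrc5, and all 4 pMT/VitD libraries lie below all 3 VitD libraries for Nlrc5 only.

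Spinal surgery was compared with no injury to see whether operated muscle carried more of the class I machinery. B2m was at 347 and 385 CPM in the control libraries and at 464 and 465 CPM in the surgery libraries. Tap1, which forms the peptide channel with Tap2, was at 11.2 and 8.63 CPM in control and at 13.6 and 12.9 CPM after surgery. Psmb9, the immunoproteasome form of the beta-1 site, was at 6.80 and 6.12 CPM in control and 9.05 and 9.26 CPM after surgery. In these 3 genes both surgery libraries were above both control libraries, and the same held for Tap2, Tapbp, Psmb8 and Psmb10. That made 7 of 8 genes, where 31.7% of all genes had both surgery libraries higher. The median log2 difference of the 8 was 0.35, against -0.01 over all genes tested.

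None of these differences passed the test (0 of 8 genes called, where 1.55% of all genes were called). The largest were Psmb9 at 0.50 (95% interval -0.06 to 1.07) and Tap1 at 0.41 (0.08 to 0.74) on the log2 scale. These sizes moved with single control libraries: Tap1 was at 0.62 without control replicate 1 and 0.23 without control replicate 2, and Psmb10 at 0.59 and 0.17. Tap1 and Tapbp (2 of 8 genes, where 17.0% of all genes were below 0.05) had unadjusted p-values of 0.0191 and 0.0439, with edgeR adjusted p-values of 0.19 and 0.276. Psmb10, the immunoproteasome form of the beta-2 site, differed by 0.37 (-0.13 to 0.87), B2m by 0.34 (-0.13 to 0.82) and Psmb8, the form of the beta-5 site, by 0.30 (-0.44 to 1.05). Nlrc5 did not follow the others, with 2.10 and 2.50 CPM in control, 2.21 and 2.31 CPM after surgery, and a log2 difference of -0.03 (-0.46 to 0.41), which was 0.24 with scaling by library size alone.

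The count of calls differed between fits. When only the 2 surgery and 2 control libraries were fitted, 6 of 8 genes were called, all higher after surgery (B2m, Tap1, Tapbp, Psmb8, Psmb9 and Psmb10), with edgeR adjusted p-values from 0.00138 for B2m to 0.0348 for Psmb10. In that fit 32.4% of all genes were called. The exactTest on the same 4 libraries called the same 6, where 36.3% of all genes were called. The voom fit with sample weights over all 15 libraries called 5 of 8 (B2m, Tap1, Tapbp, Psmb9 and Psmb10), where 28.5% of all genes were called. The fits on 2 groups also differ from the fit over 15 libraries in genes kept, scaling and degrees of freedom. The voom fit kept the same genes and TMM factors but used another model with sample weights. What makes the counts differ was not tested. The SD of B2m was 27.2 CPM between the control libraries and 1.12 CPM between the surgery libraries, but 59.1 CPM between the pMT libraries and 125 CPM between the VitD libraries, and the fit over 15 libraries pooled these spreads. On the deposited TPM scale both surgery libraries were above both control libraries for all 8 genes, where the same was true of 63.1% of all genes.

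The pMT group was compared with surgery to ask what injected mitochondria changed. B2m, the light chain, was at 443, 395, 350 and 487 CPM in the 4 pMT libraries, so 1 of them was above both surgery libraries. Tap1 was at 12.0, 10.9, 10.2 and 12.8 CPM, all below the lower surgery library. Tapbp was at 10.6, 12.3, 12.97 and 10.3 CPM, also all below the surgery libraries. Tap2 went the other way, at 5.46, 5.22, 5.20 and 5.42 CPM against 5.16 and 5.02 CPM, a log2 difference of 0.06 that was -0.08 with scaling by library size alone. So 2 genes were lower in every library, where 17.2% of all genes were, and Tap2 was the 1 gene of the 8 that was higher in every library, where 13.2% of all genes were.

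No gene passed the test between pMT and surgery (0 of 8, with 1.94% of all genes called), and 0 had an unadjusted p under 0.05, where 14.3% of all genes had. The median log2 difference was -0.17, against 0.02 over all genes. Psmb10 had the largest estimate, -0.31 (95% interval -0.74 to 0.12), with 12.6, 10.5, 9.61 and 16.0 CPM in pMT against 14.99 and 15.1 CPM in surgery, and was at -0.47 without pMT replicate 4. Psmb8 was the most scattered, at 11.6, 8.55, 5.36 and 14.0 CPM, with pMT replicate 3 lowest and replicate 4 highest of all 15 libraries. The exactTest of pMT against surgery, the test the study used, called 0 of 8 as well, where it called 7.1% of all genes. Calls here needed an adjusted p under 0.05 only, while the study also set a minimum fold change. The voom fit with sample weights called 4 as lower (B2m, Tap1, Tapbp and Psmb10), where it called 37.5% of all genes and 19.4% as lower. On the TPM scale B2m, Tap1, Psmb9 and Psmb10 were lower in every pMT library than in both surgery libraries, as were 24.9% of all genes.

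With vitamin D alone, B2m, the light chain, was at 662, 485 and 422 CPM in the VitD libraries, and VitD replicate 1 was also the highest of all 15 libraries for Tap1 (13.6 CPM), Tapbp (15.1 CPM), Psmb9 (10.5 CPM), Psmb10 (16.9 CPM) and Nlrc5 (3.02 CPM). Between VitD and surgery 0 of 8 genes were called by edgeR, 0 had an unadjusted p under 0.05, and of all genes 0.0% were called and 0.808% had such a p. Nlrc5 had the largest difference, 0.36 (95% interval -0.04 to 0.76), with all 3 VitD libraries above both surgery libraries (1 of 8 genes, where 7.69% of all genes were), and the other 7 genes lay between -0.15 and 0.17. Against control, VitD was higher in every library for 5 of 8 genes (B2m, Tapbp, Psmb8, Psmb9 and Nlrc5), where 25.0% of all genes were. B2m differed by 0.52 there (0.08 to 0.95), with an unadjusted p of 0.024 (1 of 8 genes below 0.05, where 25.8% of all genes were) and an edgeR adjusted p of 0.129. Without VitD replicate 1 the B2m difference was 0.31 against control and -0.03 against surgery, where it was 0.17 with it. On the TPM scale all 8 genes were higher in every VitD library than in both control libraries, as were 50.6% of all genes. No gene was called (0 of 8, with 8.67% of all genes called), and the estimates share the control libraries with those of surgery.

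The combined treatment was compared with surgery and with each treatment alone. In the pMT/VitD libraries B2m was at 456, 470, 365 and 349 CPM, and Tap1 was at 11.5, 10.1, 10.4 and 9.87 CPM. Against surgery, Tap1 and Nlrc5 were lower in every library (2 of 8, where 20.2% of all genes were), and 0 of 8 were called, where 7.44% of all genes were. Tap1 differed by -0.34 (95% interval -0.62 to -0.05), with an unadjusted p of 0.0237 (1 of 8 genes below 0.05, where 24.8% of all genes were) and an edgeR adjusted p of 0.135. On the TPM scale all 8 genes were lower in every pMT/VitD library than in both surgery libraries, as were 46.4% of all genes. Between pMT/VitD and pMT, 0 of 8 genes and 0.0% of all genes were called by edgeR, and 1 gene (Nlrc5) had an unadjusted p under 0.05, where 10.1% of all genes had. No gene of the 8 was higher or lower in every library there, where 2.46% of all genes were higher and 2.44% lower, and the median log2 difference of the 8 was -0.02. The intervals there still allow differences of -0.37 to 0.10 for Tap1 and -0.36 to 0.30 for B2m. With the replicate 4 libraries of pMT and pMT/VitD left out, 18.3% of all genes were called in this comparison, but none of the 8. Against control, 0 of 8 genes were called in either the pMT or the pMT/VitD group, as were 0.0% of all genes in both. The 8 genes had positive estimates in pMT, from 0.06 to 0.39, but Psmb10 was at -0.10 without pMT replicate 4 and -0.14 without control replicate 2, and Nlrc5 at -0.04 without control replicate 1. In pMT/VitD 7 of 8 estimates were positive, with 0 unadjusted p-values under 0.05 in either (3.07% of all genes in pMT and 2.88% in pMT/VitD). Tap2 was the 1 gene of the 8 higher in every pMT library than in both control libraries, where 7.41% of all genes were. Between the treatments alone, pMT and VitD, 0 of 8 genes were called and 0 had an unadjusted p under 0.05, where 8.1% and 23.2% of all genes did. The estimates of pMT against VitD ran from -0.32 for B2m (95% interval -0.68 to 0.04, and -0.12 without VitD replicate 1) to 0.15 for Tap2 (-0.07 to 0.37). DESeq2 called 1 of 8, Nlrc5, in the joint test of 5 groups (21.6% of all genes) and in pMT/VitD against VitD (26.9%), and 0 of 8 in each other comparison, where it called from 0% (pMT against control, pMT/VitD against control and the interaction) to 14.4% (VitD against control) of all genes.

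**Figure D2:**
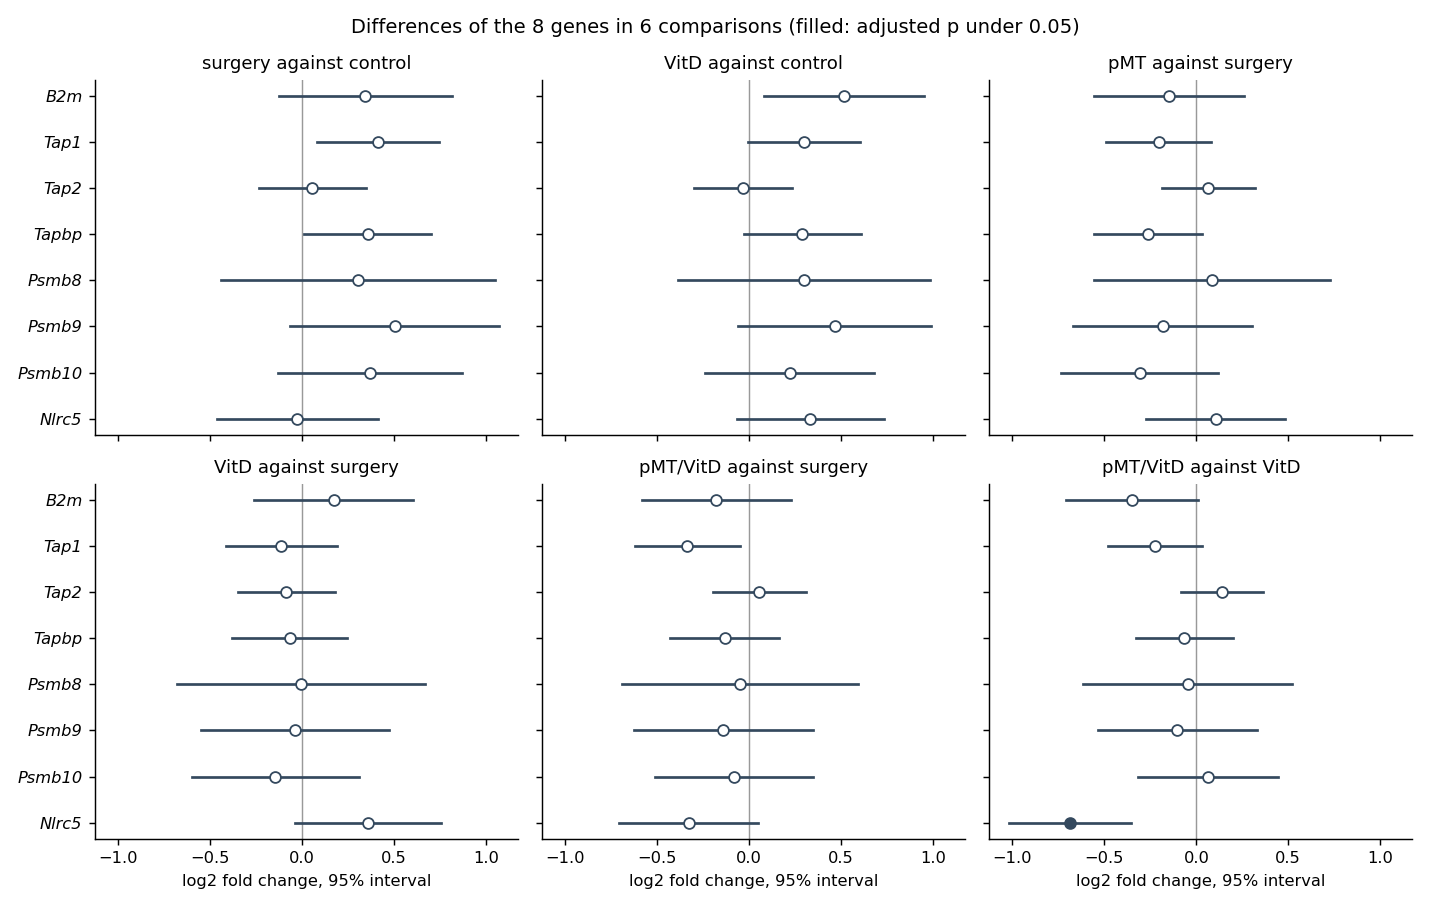
Log2 fold change of each gene (points) with its 95% interval (lines) from edgeR's quasi-likelihood fit over 15 libraries, in 6 comparisons, filled where the adjusted p was under 0.05. The only filled point is Nlrc5 in pMT/VitD against VitD, at -0.69, and 7 of 8 points lie above 0 in surgery against control.

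Nlrc5 gave the one call of the 8 genes. Its protein is an NLR family member that joins the RFX and NF-Y factors at class I promoters and drives the heavy chains, B2m, Tap1 and Psmb9. It was at 1.71, 1.54, 2.17 and 1.77 CPM in the pMT/VitD libraries and at 3.02, 2.91 and 2.75 CPM in the VitD libraries. The groups did not overlap, and Nlrc5 was lower in pMT/VitD by a log2 difference of -0.69 (SE 0.156, 95% interval -1.02 to -0.35, edgeR adjusted p = 0.00744), which is 1.61-fold lower (1.28 to 2.03). It was 1 of 8 genes called, where 21.9% of all genes were called and 12.2% were called lower. It was also the 1 gene of the 8 lower in every library (15.6% of all genes were) and the 1 with an unadjusted p under 0.05 (35.6% of all genes), so the share of the 8 was near or below that of all genes. The other 7 genes were at -0.35 (B2m, or -0.15 without VitD replicate 1) to 0.14 (Tap2) in the same comparison, and none was called.

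The call for Nlrc5 held when either group lost any 1 of its libraries (-0.79 to -0.62) and when the replicate 4 libraries of pMT and pMT/VitD were both left out (-0.69). It did not hold once a trend on gene length was taken out of every library (-0.52, edgeR adjusted p = 0.0534). Nlrc5 has the longest effective length of the 8, and pMT/VitD replicates 1 to 3 had relatively fewer counts on long genes, with rank correlations across genes of -0.39, -0.39 and -0.17 between length and the deviation from the mean library, while VitD libraries were at -0.03, 0.17 and 0.29. The part of this trend in the result beyond that fit was not tested. Nlrc5 was also at 2.78, 2.62, 2.03 and 2.29 CPM in pMT, so the pMT/VitD libraries lay mostly below those of pMT (log2 difference -0.44, 95% interval -0.75 to -0.12, unadjusted p = 0.01, edgeR adjusted p = 0.452). Whether the difference between rats with and without pMT depends on VitD was tested as an interaction, which for Nlrc5 was -0.79 (95% interval -1.30 to -0.29, unadjusted p = 0.0047, edgeR adjusted p = 0.899). Among the 8 it was the 1 gene with an unadjusted p under 0.05, as 5.16% of all genes had, and no gene tested passed after adjustment (0.0%). With the replicate 4 libraries of pMT and pMT/VitD left out, 1.89% of all genes passed in the interaction, but none of the 8.

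Immunoproteasomes form when Psmb8, Psmb9 and Psmb10 take the places of the constitutive catalytic subunits Psmb5, Psmb6 and Psmb7, so each pair was also read as a TPM ratio within a library, which needs no scaling between libraries. The constitutive subunits were far more abundant, with group means of 194 to 219 TPM for Psmb5, 233 to 256 TPM for Psmb6 and 235 to 282 TPM for Psmb7. The ratio of Psmb9 to Psmb6 was 3.96% and 3.58% in control and 6.19% and 6.46% after surgery. In pMT it was 5.68%, 5.09%, 3.88% and 4.56%, in pMT/VitD 4.32%, 3.57%, 4.08% and 4.13%, and in VitD 7.48%, 6.88% and 5.07%. Every pMT and every pMT/VitD library was therefore below both surgery libraries, and all 3 VitD libraries were above all 4 pMT/VitD libraries. How often ratios of other genes separate in this way was not counted.

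The other pairs were more scattered. Psmb8 to Psmb5 was 4.46% and 4.43% in control, 5.89% and 6.20% after surgery and 3.90% to 5.30% in pMT/VitD, while pMT ran from 4.17% to 6.99% and VitD from 5.53% to 7.63%. Psmb10 to Psmb7 was 6.93% and 5.39% in control, 8.05% and 8.43% after surgery, 6.33% to 6.81% in pMT, 6.01% to 7.02% in pMT/VitD and 6.39% to 9.31% in VitD. In all 3 pairs both surgery libraries were above both control libraries and above every pMT/VitD library. How many ratios of other genes do so was not counted. Of single genes 31.7% had both surgery libraries above control on the CPM scale and 63.1% on the TPM scale. Every pMT/VitD library was below surgery for 20.2% and 46.4% of single genes on these scales. With so few libraries an exact permutation test could reach p under 0.05 only for pMT/VitD against pMT, where the smallest possible two-sided p is 0.0286. There the log2 differences were -0.34 for Psmb8, -0.24 for Psmb9 and -0.05 for Psmb10, with two-sided exact permutation p-values of 0.143, 0.143 and 0.4. As for the denominators, Psmb6 was higher in pMT/VitD than in VitD (log2 difference 0.58, SE 0.164, edgeR adjusted p = 0.0211), and Psmb5 (0.41, adjusted p = 0.064) and Psmb7 (0.33, adjusted p = 0.153) were not called. Against surgery, the pMT/VitD log2 ratios differed by -0.38 (Psmb8), -0.65 (Psmb9) and -0.37 (Psmb10). The numerators alone differed by -0.05, -0.14 and -0.08 on the CPM scale. A list of 7 genes, these denominators with proteasome activators and Pomp, had a median of 0.48 there, with 0 called. In surgery against control its median was -0.24. The part of the denominators in the ratios was not tested.

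**Figure D3:**
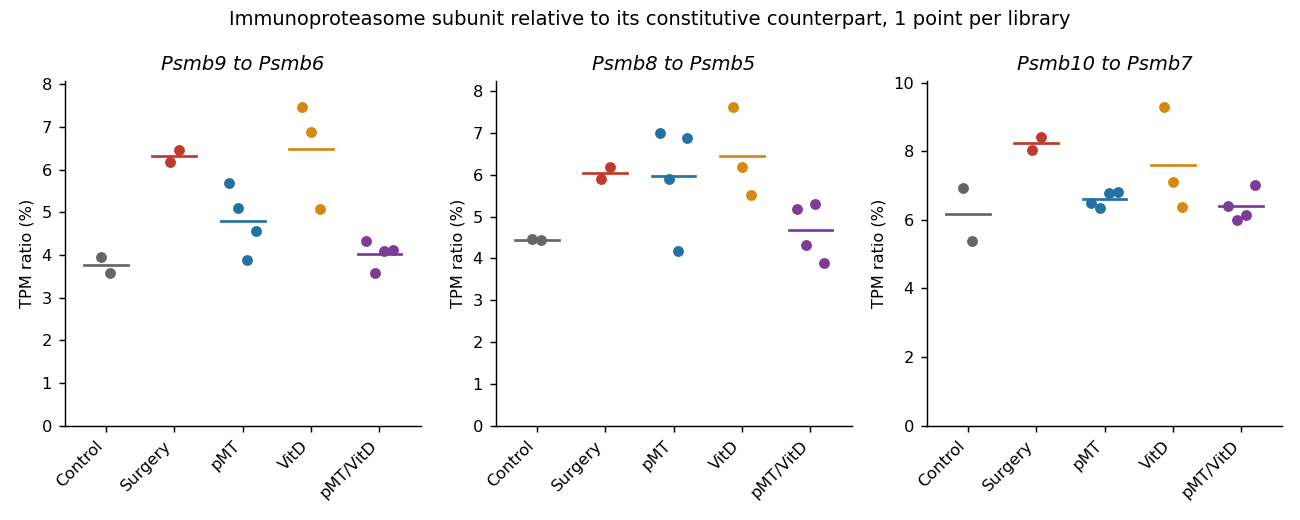
Ratio of the deposited TPM of each immunoproteasome subunit to that of its constitutive counterpart in percent, 1 point per library in label order, with a line at the group mean and the axis from 0. Both surgery libraries lie above both control libraries and above all 4 pMT/VitD libraries in each panel, and how many ratios of other genes do so was not counted.

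The 8 genes did not vary as 1 block over the 15 libraries. Of their 28 pairs, 10 had a Pearson r of log2 CPM over 0.5 and 4 had one below 0, with a median of 0.30. B2m, Tap1, Psmb8, Psmb9 and Psmb10 formed the 10 pairs over 0.5, from 0.60 for Tap1 with Psmb8 to 0.87 for Psmb8 with Psmb9. Tap2, Tapbp and Nlrc5 stood outside, and the lowest value was -0.50 between Tap2 and Nlrc5. These libraries share scaling, depth and group, so the values are given as a description only. The gene length rank correlation of each library had r of -0.78 with Psmb10, -0.67 with Psmb8 and -0.63 with Psmb9 over the 15 libraries. It had r of -0.38 with B2m, -0.18 with Tap1, -0.33 with Tap2, 0.18 with Tapbp and 0.45 with Nlrc5. The part of this length trend in the block was not tested.

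**Figure D4:**
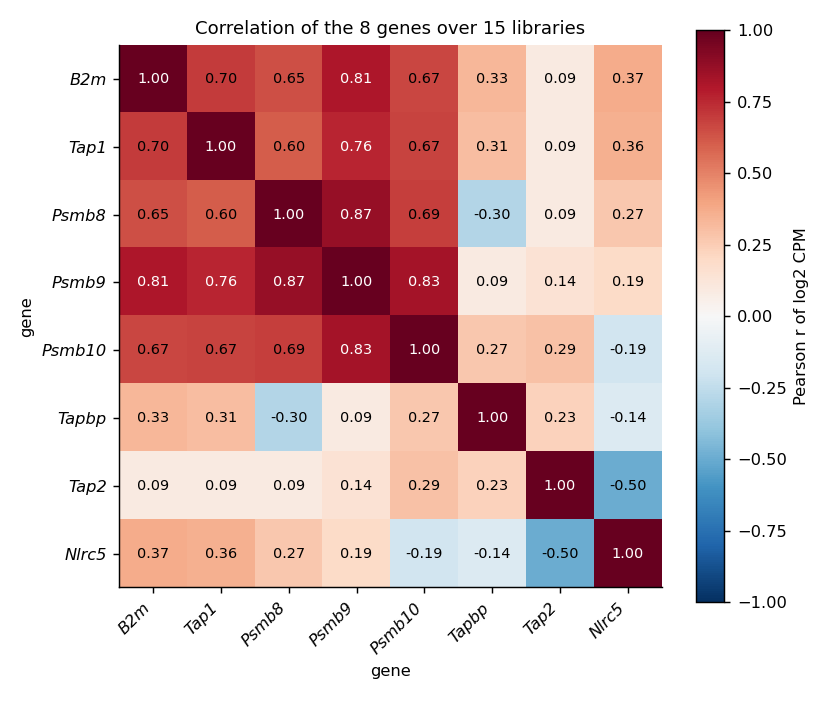
Pearson r of log2 CPM between each pair of the 8 genes over 15 libraries, on a colour scale from -1 to 1. B2m, Tap1, Psmb8, Psmb9 and Psmb10 form a block from 0.60 to 0.87, and Tap2, Tapbp and Nlrc5 lie outside it.

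Promoters are shown for 4 of the 5 genes in that block because interferon is the best known input to them. RefSeq windows of the GRCr8 assembly, from 250 bases before to 50 after the start site, were found for 7 of the 8 genes. An interferon-stimulated response element, searched as GAAA, then 2 bases of any kind, then GAAA again, on either strand, was in 6 of the 7 (B2m, Tap1, Tap2, Tapbp, Psmb8 and Psmb10), against 3.92% of 33469 windows of that length. Psmb10 and Tapbp held 2 each, and those of Tapbp overlap. Psmb9 held none, but shares its upstream region with Tap1: both genes lie on chromosome 20, point away from each other and start 408 bases apart. The letters TGACGNNA, the core of the X2 box, were in 1 of 7 (Psmb9), against 7.11% of windows. The gamma-activated site TTCNNNGAA was in 1 of 7 (Psmb8), against 8.87%, and the CCAAT box in 3 of 7, against 37.5%. The bases upstream of both the window's start site and the outermost annotated start of the gene follow for 4 genes, 5′ to 3′ along each gene's strand, with matches in capitals. They are B2m at chr3:129549080-129549235 (plus strand), Tap1 at chr20:4668544-4668793 (minus strand), Psmb9 at chr20:4668750-4668951 (plus strand) and Psmb10 at chr19:50743293-50743542 (minus strand).
B2m: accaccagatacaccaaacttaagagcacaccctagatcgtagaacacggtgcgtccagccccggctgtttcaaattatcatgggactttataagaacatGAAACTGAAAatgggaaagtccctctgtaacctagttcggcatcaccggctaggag
Tap1: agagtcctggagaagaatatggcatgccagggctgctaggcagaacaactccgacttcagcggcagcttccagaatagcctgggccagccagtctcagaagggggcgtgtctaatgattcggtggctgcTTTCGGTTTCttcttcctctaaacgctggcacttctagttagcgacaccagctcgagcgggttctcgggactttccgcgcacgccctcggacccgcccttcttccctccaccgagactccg
Psmb9: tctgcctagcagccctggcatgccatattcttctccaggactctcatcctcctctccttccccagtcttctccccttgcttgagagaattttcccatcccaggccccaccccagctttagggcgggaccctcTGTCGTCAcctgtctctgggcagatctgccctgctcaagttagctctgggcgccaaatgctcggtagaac
Psmb10: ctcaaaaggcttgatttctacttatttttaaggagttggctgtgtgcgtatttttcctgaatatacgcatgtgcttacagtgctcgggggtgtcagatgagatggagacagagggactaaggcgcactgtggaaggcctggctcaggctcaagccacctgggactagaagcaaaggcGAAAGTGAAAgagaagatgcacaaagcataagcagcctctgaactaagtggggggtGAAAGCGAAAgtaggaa
The capitals mark the response element in B2m, in Tap1 (on the other strand) and at 2 places in Psmb10, and the X2 core in Psmb9 (on the other strand). Psmb8, the fifth gene of the block, is not printed, since its response element begins 4 bases before the window's start site and runs across it, outside the stretch so defined. Tap2, outside the block, holds the element as well (GAAAGCGAAA, 41 bases before its start), so having it does not separate the genes that varied together from those that did not.

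Outside the list, the genes most like the mean pattern of the 8 over 15 libraries, among 11391 genes whose log2 CPM averaged 1 or more, were Rhoc (r = 0.94), Fxyd5, Taldo1, Apol3 and Tmem88 (each 0.93). Rhoc is a small GTPase, Fxyd5 a regulator of the sodium pump, Taldo1 an enzyme of the pentose phosphate pathway and Apol3 an apolipoprotein L family gene. Rhoc was at 37.6 and 36.4 CPM in control, 50.4 and 49.7 CPM after surgery and 70.5 CPM in VitD replicate 1. Among the lists, the 8 heavy chains ran from 0.30 (RT1-CE7) to 0.93 (RT1-CE5 and RT1-A1), with RT1-CE3 at 0.91 and RT1-A2 at 0.49. The interferon-stimulated genes ran from -0.68 (Irgm) to 0.88 (Ifit3). The muscle oxygen store Mb was at 0.89, but all other muscle markers were negative, from -0.66 (Myh4) to -0.01 (Myh2). The highest values thus included genes with no role in antigen presentation, in libraries where VitD replicate 1 was the highest for several of them.

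The class I heavy chains, which the machinery serves, were 8 tested genes of the 9 in the table, a family with near-identical copies whose reads may be split between them. None was called in any comparison, where edgeR called from 0.0% to 21.9% of all genes. Their median log2 difference was 0.40 in surgery against control and 0.50 in VitD against control, and their summed level was 171 and 191 CPM in control and 225 and 230 CPM after surgery. RT1-A1 was at 32.2 to 36.9 CPM in control and 49.2 CPM in both surgery libraries (log2 difference 0.51, adjusted p = 0.164), and RT1-CE5 at 34.3 to 37.2 against 50.6 to 52.4 CPM (0.53, adjusted p = 0.218). RT1-A2, the most abundant, differed by 0.02. Psmb8 followed the summed heavy chains closely over the 15 libraries (r = 0.91), then Psmb9 (0.87) and Tap1 (0.80), while Tapbp did not (-0.05). Values of this kind, given here, for the length trend and with the other lists, were picked from 40 computed, 8 genes against 5 library measures.

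Of the 9 chaperones and trimming enzymes of peptide loading, 0 were called in surgery against control, where 1.55% of all genes were. In pMT/VitD against VitD 4 were called lower (Canx, Pdia3, Lnpep and Ganab), as were 12.2% of all genes. Pdia3, the thiol oxidoreductase that pairs with tapasin, had a log2 difference of -0.62 there (SE 0.132, edgeR adjusted p = 0.00524), and Canx, the lectin chaperone that folds new heavy chains, one of -0.45 (SE 0.1, adjusted p = 0.00633). Pdia3 was also called higher in VitD than in control (0.74, adjusted p = 0.0155), at 116 to 179 CPM against 83.0 to 89.3 CPM. Calr, which holds the empty heavy chain in the loading complex, was not called in these comparisons.

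Among 20 tested regulators of class I and the interferon-gamma pathway, 2 were called in surgery against control, both higher (1.55% of all genes were called). Ciita, the MHC class II relative of Nlrc5, was at 1.44 to 1.72 CPM in control and 3.50 to 3.51 CPM after surgery (log2 difference 1.15, SE 0.215, edgeR adjusted p = 0.0215). Irf8, a myeloid transcription factor, differed by 0.76 (SE 0.174, adjusted p = 0.0461). Both were called lower in pMT than in surgery (-0.82, adjusted p = 0.0301, and -0.62, adjusted p = 0.0456) and in pMT/VitD than in surgery (-1.13, adjusted p = 0.00295, and -0.83, adjusted p = 0.0053), comparisons that share the surgery libraries. Of all genes 1.94% and 7.44% were called in these 2 comparisons. In pMT/VitD against VitD 8 of the 20 were called, 6 of them lower, where 21.9% of all genes were called and 12.2% called lower. The list's medians were 0.10, -0.05, -0.12 and -0.16 in these 4 comparisons. Irf1, a transcription factor that carries the interferon-gamma signal to class I promoters, was not called in any comparison and was at 9.64 to 13.8 CPM over all libraries. Ifng itself had 0 counts in 14 of 15 libraries and 2 counts in the other.

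The 13 interferon-stimulated genes had a median log2 difference of 0.52 in surgery against control, where 1 was called (1.55% of all genes were). It was lower: Irgm, an interferon-inducible GTPase, at 22.3 to 27.1 CPM in control and 12.6 to 13.2 CPM after surgery (-0.94, SE 0.152, edgeR adjusted p = 0.0121). In pMT/VitD against surgery 3 were called lower and Irgm higher, where 7.44% of all genes were called. The antiviral GTPases Mx1 (-0.83, edgeR adjusted p = 0.0372) and Mx2 (-0.67, adjusted p = 0.00881) were among those lower. In pMT/VitD against VitD 7 of 13 were called lower and Irgm higher, where 21.9% of all genes were called and 12.2% called lower. The summed level of the list was 111 and 118 CPM in control, 138 and 142 CPM after surgery and 104 to 123 CPM in pMT/VitD, and B2m followed it over the 15 libraries (r = 0.83, or 0.63 without the 2 libraries farthest from its median).

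Leukocyte markers, genes of cells rich in class I, had a summed level of 100.4 and 102 CPM in control, 171 and 172 CPM after surgery, 73.8 to 112 CPM in pMT, 60.1 to 114 CPM in pMT/VitD and 165 to 192 CPM in VitD. Of these sums Cd4 alone gave 34.4 to 36.5 CPM in control and 61.6 to 61.9 CPM after surgery. All surgery and VitD libraries were above all others in the summed level. Of 13 tested, 2 were called higher in surgery against control (Nkg7 and Adgre1) and 2 lower in pMT against surgery (Cd4 and Adgre1). Of all genes 1.55% and 1.94% were called there. In pMT/VitD against surgery 5 were called lower, where 7.44% of all genes were called. In pMT/VitD against VitD, where Nlrc5 was called, 6 were called lower, as were 12.2% of all genes. The macrophage receptor Csf1r was at 23.8 to 48.5 CPM in pMT/VitD and 61.7 to 65.3 CPM in VitD (-0.91, SE 0.217, edgeR adjusted p = 0.00929). The T cell marker Cd3e had 0 counts in 3 libraries and the B cell marker Ms4a1 in 2. Over the 15 libraries r with the leukocyte sum was 0.65 for Nlrc5 (Spearman 0.58, and r = 0.44 without the 2 farthest libraries), 0.51 for Tapbp (0.63 without them), 0.45 for Tap1 (0.27) and 0.31 for B2m (0.20). It was 0.04 for Psmb9, -0.05 for Psmb10, -0.17 for Psmb8 and -0.46 for Tap2. The part of leukocytes in the class I results was not tested, and fewer cells of a type cannot be told apart from less RNA per cell in whole muscle.

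The 6 endothelial markers summed to 235 and 237 CPM in control, 263 and 264 CPM after surgery, 214 to 302 CPM in pMT, 203 to 262 CPM in pMT/VitD and 258.5 to 287 CPM in VitD. Kdr went against this sum after surgery, at 27.1 and 29.1 CPM in control and 18.1 and 19.0 CPM in surgery. Of the 6, 0 were called in surgery against control, where 1.55% of all genes were. In pMT/VitD against VitD, where Nlrc5 was called, Pecam1 was called lower (-0.37, edgeR adjusted p = 0.0215), as were 12.2% of all genes. The list median was -0.32 there, while Kdr averaged 24.9 CPM in pMT/VitD and 20.5 CPM in VitD. Emcn was called higher in VitD than in control, where 8.67% of all genes were called, and Kdr higher in pMT than in VitD, where 8.1% were. The part of endothelium in the class I results was not tested. Of the 9 muscle markers 3 were called higher in pMT/VitD than in VitD (Ckm, Des and Myh4), where 21.9% of all genes were called. Their sum was 162147 to 184464 CPM in pMT/VitD, above all VitD libraries at 103246 to 144956 CPM, and the part of this in the lower Nlrc5 level was not tested.

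**Figure D5:**
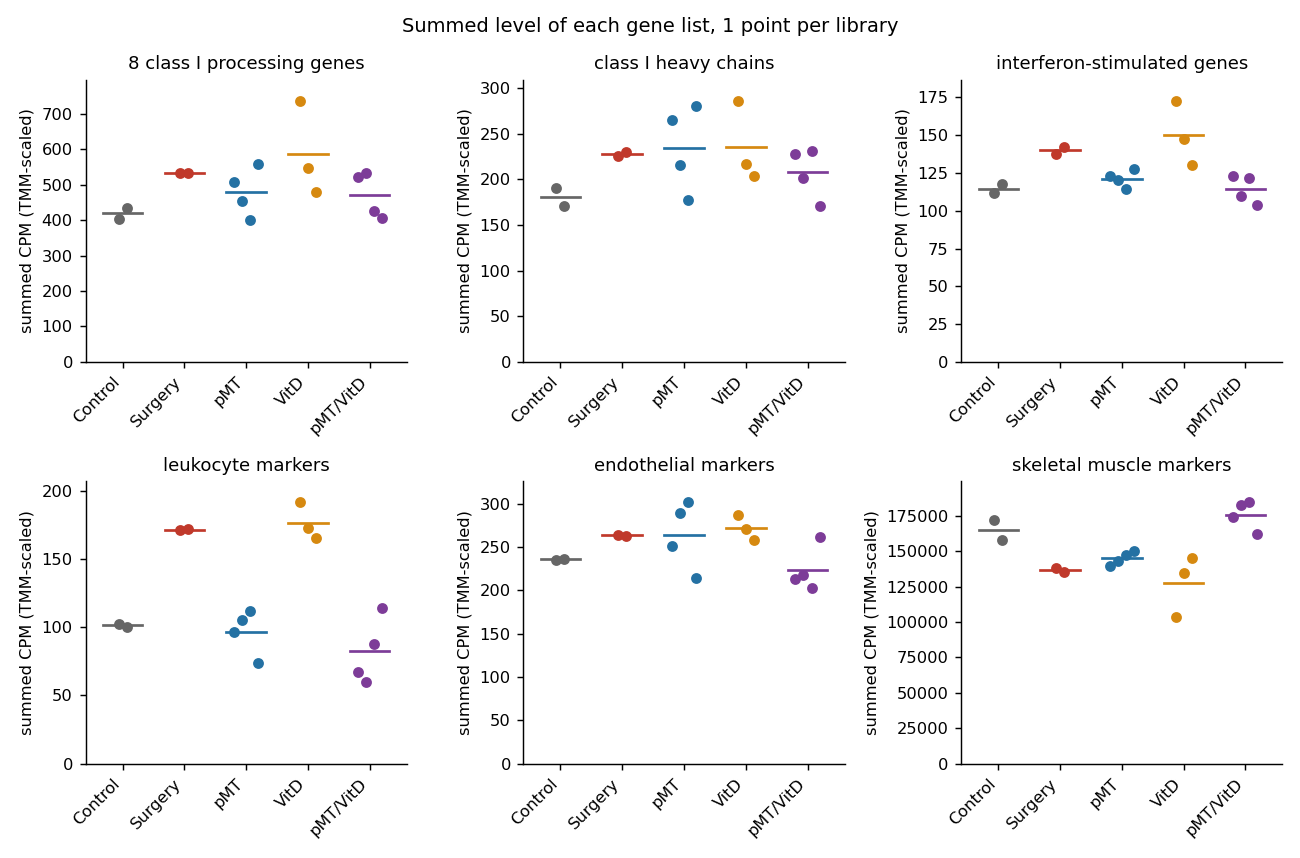
Summed TMM-scaled CPM of the 8 genes and of 5 other lists in each library, 1 point per library in label order, with a line at the group mean and the axis from 0. The leukocyte sum was 165 to 192 CPM in surgery and VitD and at most 114 CPM in the other groups, while the sum of the 8 genes ran from 400.4 to 557 CPM in pMT. Most of that sum is B2m, which alone was at 350 to 487 CPM in pMT.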

How the data were processed

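RNA of multifidus muscle was sequenced from both fragment ends (NovaSeq). Per the labels and the paper's methods, Trimmomatic 0.38 removed adapters and poor bases, HISAT2 2.1.0 placed the reads on rn6, and StringTie 2.1.3b gave the authors' gene values. The deposited read counts per gene are whole numbers without normalization, and the deposited TPM values are scaled by the authors within each library for gene length and total. The deposited FPKM columns were not used. How strand and reads with several alignments were treated is not given in the sources used here, so heavy chain genes with near-identical copies are uncertain.

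Groups came from the sample labels. Counts were tested with edgeR 4.0.16 in R 4.3.3 (TMM factors, filterByExpr, robust quasi-likelihood fit and F-test, Benjamini-Hochberg adjustment, 17201 genes), and 95% intervals came from the same fit. The 8 genes were named in every comparison. From other lists at most 3 genes per comparison were named by abundance, called genes first, and others (Lnpep, Nkg7, Ifit3, Mb, Irf1 and genes at 0) were chosen after their values were seen. The genes and lists were chosen with earlier results of these data known. Ratios of TPM were compared by an exact permutation test. Correlations used log2 CPM with a prior count of 2. The gene length trend was a lowess curve (span 0.3) of each library's deviation on log2 of mean count over mean TPM. Promoters and their coordinates came from RefSeq on GRCr8, which is not the build of the counts. Alternatives were RLE and library size scaling, filters of 10 counts in every library or none, DESeq2 1.42.0, exactTest, voom with sample weights (limma 3.58.1), fits on the groups compared only, the length trend, a replicate block, and leaving out libraries. The quasi-likelihood test was checked on simulated counts.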

Additional observations from a re-analysis of the deposited data

How the results depend on the processing

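Counts of the 8 genes called stayed within 1.5 times of the reported count under RLE scaling, both filters on low counts, the replicate block and the exclusion of the replicate 4 libraries of pMT and pMT/VitD (1 in pMT/VitD against VitD, 0 elsewhere), and no direction of a called gene was reversed. In pMT/VitD against VitD these settings called, in that order, 22.3%, 26.9%, 13.1%, 15.7% and 32% of all genes. Without the replicate 4 libraries 18.3% of all genes were called in pMT/VitD against pMT, 29.8% among 5 groups and 1.89% in the interaction. The fit with all libraries called 0.0%, 11.8% and 0.0% there. With library size scaling 3 genes were called among 5 groups (20.8% of all genes), 1 in surgery against control (5.8%), 2 in pMT/VitD against surgery (18.9%), 3 in pMT/VitD against VitD (33.5%) and 3 in VitD against control (16.2%), on a scale where the median gene itself moved. The exactTest and the fit on the 2 groups alone each called 6 in surgery against control (36.3% and 32.4% of all genes). Voom with sample weights called 7 among 5 groups (66.6% of all genes), 5 in surgery against control (28.5%), 4 in pMT against surgery (37.5%), 2 in pMT/VitD against surgery (39.4%), 2 in pMT/VitD against pMT (38.3%), 2 in pMT/VitD against VitD (48.7%), 3 in pMT against VitD (49.6%), 4 in VitD against control (37.4%) and 2 in the interaction (31.4%). DESeq2 called 1 among 5 groups (21.6%). With the length trend removed 0 were called in pMT/VitD against VitD, without the block (25.4% of all genes) or with it (19.8%), and with the block and the trend together 2 were called in VitD against control (B2m and Psmb9, 12.9% of all genes). Leaving out 1 library at a time gave 0 to 1 called among 5 groups, with 1 (Nlrc5) only without pMT/VitD replicate 3 (10.4%). The cause of these changes was not tested beyond what each setting alters. Same-numbered libraries correlated at -0.50 to 0.17 in their deviations from group means. Libraries with different numbers were not compared in this way, so this cannot decide whether replicate numbers pair the libraries. With the block Nlrc5 was at -0.67 in pMT/VitD against VitD (edgeR adjusted p = 0.0318). The subunit ratios of pMT/VitD against pMT had exact p-values of 0.25, 0.25 and 0.375 when same-numbered libraries were paired. That paired permutation test cannot reach p under 0.05 with so few pairs, so these values decide nothing. Control and surgery held 2 libraries each, which limits every comparison with them, and Nlrc5 rested on the fewest counts (79 to 258 per library).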
